A study of Homo sapiens with 64 samples.

Results

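The scaffold gl000226 (chrUn_gl000226 in the human build hg19) held 243 of the 2442 chromatin peaks (9.95%) found by chromatin immunoprecipitation and sequencing (ChIP-seq) in U2OS cells. Its members are all peaks of the 24 peak lists whose sequence name is this scaffold, so no score or width was used to choose them. The scaffold itself was chosen with earlier results of these data known. They lay between positions 40 and 14976 (counted from 1), a span of 14937 bp. No other scaffold held as many peaks, and the other scaffolds together held 205. A peak is a stretch where reads from the precipitate pile up.

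The 24 lists came from U2OS, an established human osteosarcoma line, and from U2OS cells stably expressing an shRNA against TUBG (shTUBG U2OS), which is directed at γ-tubulin. Cells were asynchronous, or were taken 3, 7 or 9 h after release from a double thymidine block, a treatment that halts DNA synthesis and so collects cells at the start of S phase. Chromatin cut with micrococcal nuclease was precipitated with an antibody against 1 of 4 proteins in U2OS (γ-tubulin, PCNA, Mcm5 or FoxM1) and against γ-tubulin or PCNA alone in shTUBG U2OS. There are 64 labelled samples (48 precipitates and 16 inputs), and each list covers the 2 precipitated samples of its antibody, time and line. There was therefore 1 pooled list per group and no replicate error. The lists of a time and line share the labelled input samples, and the lists of a line share that line, so agreement between lists is given below as a description. Read depth is unknown, and a list from fewer reads can hold fewer peaks.

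Unplaced scaffolds are pieces of assembled human DNA whose position on the chromosomes had not been fixed when the build was made. Many of them hold repeated DNA, where short reads can fit several places equally well. Whether gl000226 is repeated DNA was not checked, because no sequence or annotation of this scaffold in hg19 was at hand, so no gene, exon or repeat is assigned to a peak and no sequence is printed. PCNA is the sliding clamp that holds DNA polymerases on replicating DNA. Mcm5 is a subunit of the helicase that is loaded at replication origins and then opens the double helix. FoxM1 is a transcription factor of the cell cycle, and γ-tubulin, known for nucleating microtubules at the centrosome, is also found in the nucleus.

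The scaffold was called in 17 of the 24 lists, in 14 of 16 from U2OS and in 3 of 8 from shTUBG U2OS. The lists that called it held from 4 to 19 scaffold peaks, with a median of 16. The 7 lists that did not call it were all 4 γ-tubulin lists of shTUBG U2OS and 3 of the 7 h lists, those of PCNA in both lines and of Mcm5 in U2OS. These 7 lists held from 17 to 94 peaks elsewhere, with a median of 33.

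**Figure D1:**
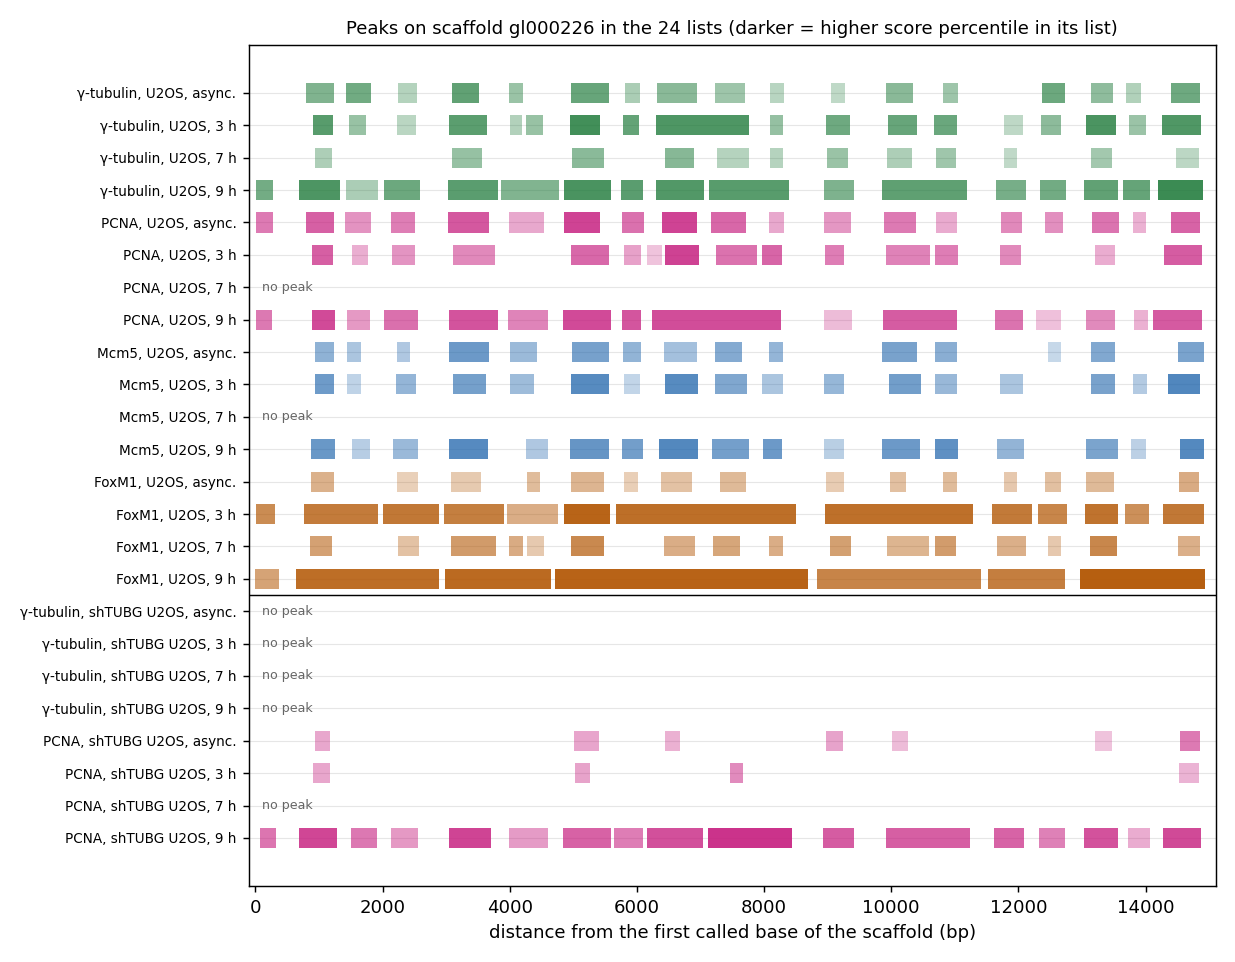
Each row is a peak list and each bar a peak on scaffold gl000226, drawn at its distance in bp from the first called base, with a darker bar for a higher score percentile within the list and colours for the antibodies. The bars stand in the same columns in most rows, run together in the FoxM1 lists at 3 and 9 h, and are missing from 7 rows.

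γ-tubulin was the antibody with the most scaffold peaks, 64 of its 453 peaks in U2OS (14.1%), and it called the scaffold at every time. The asynchronous list had 17 of 102 peaks on the scaffold (16.7%). At 3 h the number was 18 of 123 (14.6%). At 7 h it was 12 of 75 (16%), and at 9 h 17 of 153 (11.1%, exact 95% Clopper-Pearson interval 6.61% to 17.2%). The 4 lists thus lay within 12 to 18 peaks, and the 7 h list was the lowest. These intervals cover counting error only, and neighbouring peaks are not independent.

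PCNA had 51 scaffold peaks among 369 in U2OS (13.8%), all of them at 3 of the 4 times. The asynchronous list held 19 of 118 peaks on the scaffold (16.1%), the most of any list. The 3 h list held 16 of 104 (15.4%), and the 9 h list 16 of 130 (12.3%). At 7 h there were 0 of 17, which allows a share of up to 17.6%, and 0 of those 17 peaks lay outside the mitochondrial genome. With so short a list, a share like that of the other times could not be told from 0.

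Mcm5 had 49 scaffold peaks among 368 (13.3%) and shared the pattern over time. There were 15 of 98 in asynchronous cells (15.3%), 17 of 132 at 3 h (12.9%) and 17 of 109 at 9 h (15.6%). At 7 h there were 0 of 29, which allows up to 10.3%, and 24 of these 29 peaks lay outside the mitochondrial genome. This limit is below the shares of the other Mcm5 times, but it lay inside the interval of each. The lower ends of these intervals were 8.83% (asynchronous), 7.68% (3 h) and 9.36% (9 h). The limit also treats peaks as independent, which neighbouring scaffold peaks are not.

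FoxM1 had 51 scaffold peaks among 698 (7.31%), the lowest share of the U2OS antibodies. Asynchronous cells had 15 of 129 (11.6%) and 7 h cells 16 of 123. The share was 6.44% at 3 h (13 of 202) and 2.87% at 9 h (7 of 244, interval 1.16% to 5.82%). FoxM1 and γ-tubulin were the antibodies with scaffold peaks at 7 h. The FoxM1 lists with the fewest scaffold peaks were also those with the most peaks elsewhere.

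The number of peaks did not follow the length of scaffold that they covered. FoxM1 covered 4978 bp in asynchronous cells, 12620 bp at 3 h, 6267 bp at 7 h and 14040 bp at 9 h, so its 7 peaks at 9 h spread over 94.0% of the span. γ-tubulin covered 6195 bp in asynchronous cells, 7460 bp at 3 h, 4338 bp at 7 h and 11096 bp at 9 h. PCNA covered 7878, 6812, 0 and 9914 bp at these times, and Mcm5 5639, 6536, 0 and 7244 bp. The 9 h list was the longest of its antibody for γ-tubulin (153 peaks), PCNA (130) and FoxM1 (244). For Mcm5 it held 109 peaks, against 132 at 3 h. For each of the 4 antibodies the cover was highest at 9 h. Over the antibodies it averaged 10574 bp at 9 h against 5727 bp for the mean of the other times, a difference of 4847 bp with an SD of 1209 bp over the 4 antibodies. In an exact permutation test by two-sided sign flips p was 0.125, the smallest that 4 pairs can give, and 0.1875 after Benjamini-Hochberg adjustment over 3 comparisons. The antibodies of a time share its labelled input samples, so the 4 pairs are not independent. Without the 7 h lists, where PCNA and Mcm5 covered 0 bp, the difference in cover was 3309 bp. Peak number at 9 h was on average 1.08 higher with an SD of 6.18, higher in 3 of 4 antibodies (exact sign-flip permutation test, p = 0.875, adjusted p = 0.875). It was the sole highest time for number in 0 of 4 antibodies, and without the 7 h lists, where PCNA and Mcm5 had 0 scaffold peaks, the difference was -2. The choice of 9 h was made after the values were seen.

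**Figure D2:**
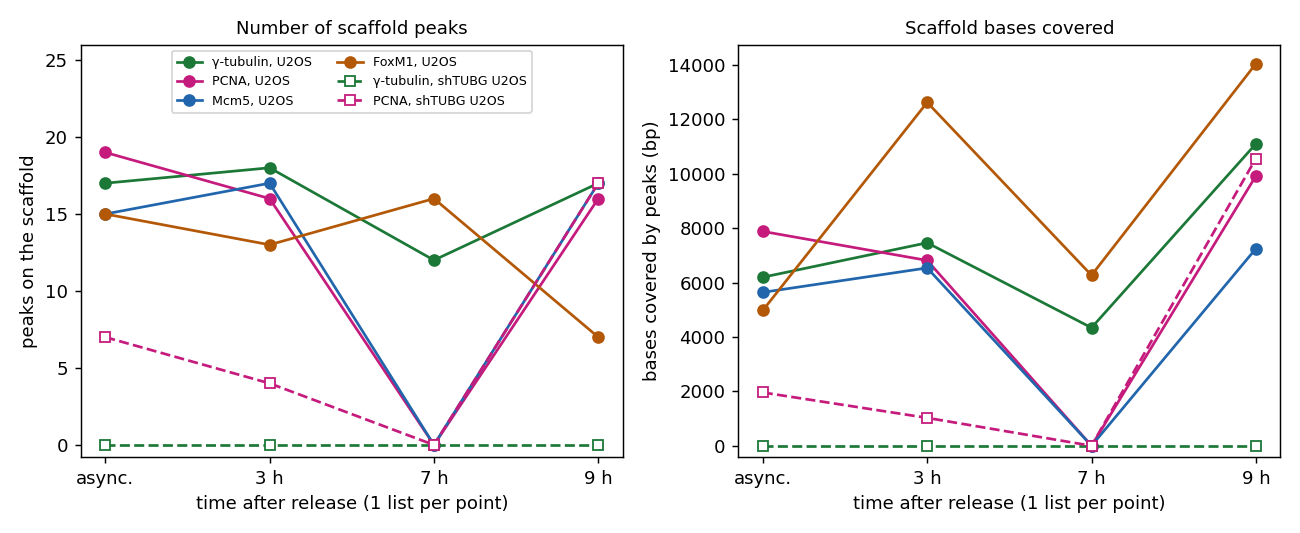
The left panel plots the number of scaffold peaks and the right panel the scaffold bases they cover (bp), for asynchronous cells and 3, 7 and 9 h after release, with filled circles for U2OS, open squares for shTUBG U2OS and 1 list per point, so there are no error bars, and the lines only join the lists of an antibody. All filled circles in the right panel are highest at 9 h, while the FoxM1 number in the left panel is lowest there at 7.

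Across antibodies in U2OS, γ-tubulin averaged 16 ± 2.71 scaffold peaks per list (SD, n = 4 times), PCNA 12.8 ± 8.62, Mcm5 12.2 ± 8.22 and FoxM1 12.8 ± 4.03. With lists paired by time, γ-tubulin was higher than PCNA by 3.25 peaks and in 3 of 4 pairs (exact sign-flip permutation test, p = 0.5). It was higher than Mcm5 by 3.75 peaks, in 3 of 4 pairs with 1 pair equal (exact test, p = 0.25), and higher than FoxM1 by 3.25 peaks, in 3 of 4 pairs (exact test, p = 0.375). The adjusted p was 0.5 for all 3 comparisons. The paired differences had SDs of 5.56 to 6.08 peaks, larger than the mean differences. At 7 h the short PCNA and Mcm5 lists had 0 scaffold peaks. Without the 7 h lists γ-tubulin was higher by 0.33 peaks than PCNA, by 1 than Mcm5 and by 5.67 than FoxM1. In covered bases the direction against FoxM1 was the opposite, with γ-tubulin minus FoxM1 at -2204 bp.

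When peaks of all 24 lists that shared at least 1 bp were merged, the scaffold fell into 6 regions, out of 387 in the whole series. The first, from 40 to 409, was called by 6 peaks in 6 lists, of γ-tubulin (1 list), PCNA (2), FoxM1 (2) and PCNA in shTUBG U2OS (1), and never for Mcm5. The second, from 683 to 2933, held 40 peaks from 17 lists. The largest, from 3011 to 8733, held 94 peaks from 17 lists. The fourth, from 8876 to 11450, held 39 peaks from 16 lists, and the fifth, from 11561 to 12808, held 23 peaks from 15 lists. The last, from 13001 to 14976, held 41 peaks from 17 lists. Each of the 5 regions after the first was called for γ-tubulin and FoxM1 at 4 times and for PCNA and Mcm5 at 3 times in U2OS. Not 1 of the 6 was called for γ-tubulin in shTUBG U2OS.

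The 6 regions left 5 gaps between them, at 410 to 682 (273 bp), 2934 to 3010 (77 bp), 8734 to 8875 (142 bp), 11451 to 11560 (110 bp) and 12809 to 13000 (192 bp). Peaks of at least 1 list thus covered 14143 bp, 94.7% of the span. Of all 387 regions, 26.1% were called in 6 lists or more, against 6 of 6 on the scaffold, and 6.72% were called in 17 lists or more, against 3 of 6 on the scaffold. The limits of 6 and 17 lists are the lowest and highest values of the scaffold regions themselves, so the count of 6 of 6 was fixed by that choice. All 4 antibodies called 19.6% of all regions and 5 of the 6 scaffold regions. A region that γ-tubulin marked at every time in U2OS and never in shTUBG U2OS was rare, 23 of 387 or 5.94%, and 5 of these 23 were the scaffold regions from the second to the last. The regions lie side by side on 1 short scaffold, so they are not independent of each other.

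Within the regions the lists marked the same places. At least 10 lists covered 6623 bp (44.3% of the span) in 20 stretches of 19 to 595 bp, with a median length of 315 bp. The centres of neighbouring stretches lay from 269 to 1047 bp apart, with a median of 730.5 bp over 19 distances. Within a list, midpoints of neighbouring peaks had a median distance of 772 to 2026 bp in U2OS, and the median of these 14 values was 820 bp. γ-tubulin alone gave medians of 800 bp in asynchronous cells, 773 bp at 3 h, 1018 bp at 7 h and 811 bp at 9 h. The widest spacing in U2OS was that of FoxM1 at 9 h, where peaks were fused. The threshold of 10 lists was chosen after the values were seen.

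**Figure D3:**
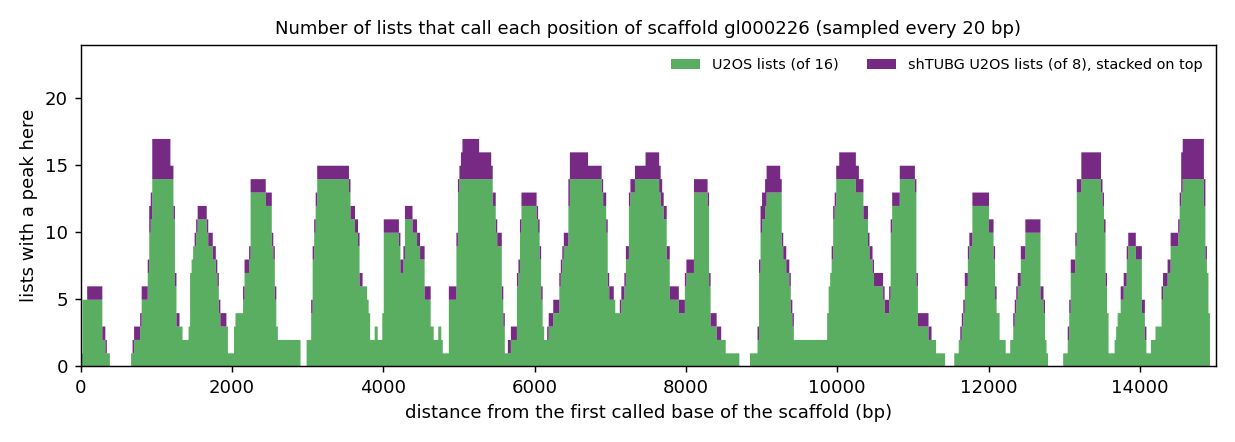
Number of lists with a peak at each position of scaffold gl000226, sampled every 20 bp and plotted against the distance in bp from the first called base, with U2OS lists in green and shTUBG U2OS lists stacked on them in purple. The profile rises and falls along the whole scaffold and reaches 17 lists in 3 stretches.

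All 17 lists met in 3 stretches, which together made up 747 bp (5.00% of the span). They lay at 978 to 1204 (227 bp), 5064 to 5296 (233 bp) and 14586 to 14872 (287 bp). The second centre lay 4089 bp after the first, and the last 9549 bp after the second. At least 16 lists also met at 6482 to 6721, 7498 to 7665, 10047 to 10266 and 13250 to 13509. The 3 stretches were chosen because all lists that call the scaffold call them, so their presence in these lists is fixed by the choice and is not a result.

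At the first stretch, the γ-tubulin peaks of U2OS lay at 830 to 1278 (asynchronous), 945 to 1262 (3 h), 973 to 1249 (7 h) and 723 to 1364 (9 h). The PCNA peaks of U2OS lay at 836 to 1273 (asynchronous), 924 to 1254 (3 h) and 925 to 1295 (9 h). Mcm5 peaks began at 974, 974 and 921 at these times and ended at 1271, 1280 and 1286. γ-tubulin thus placed 1 short peak here at 4 times, and PCNA and Mcm5 at the 3 times when they had scaffold peaks. FoxM1 did so in asynchronous cells (912 to 1271) and at 7 h (905 to 1242), but its peak reached to 1961 at 3 h and to 2933 at 9 h. In shTUBG U2OS, the PCNA peak lay at 978 to 1204 (asynchronous), 940 to 1212 (3 h) and 718 to 1326 (9 h).

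At the second stretch, the γ-tubulin peaks of U2OS lay at 5010 to 5595 (asynchronous), 4995 to 5466 (3 h), 5015 to 5514 (7 h) and 4895 to 5633 (9 h). PCNA in U2OS lay at 4889 to 5464 (asynchronous), 4999 to 5599 (3 h) and 4881 to 5631 (9 h), and Mcm5 at 5023 to 5598, 4997 to 5593 and 4989 to 5605. The FoxM1 peak measured 522 bp in asynchronous cells, 732 bp at 3 h, 514 bp at 7 h and 3976 bp at 9 h, where it reached from 4758 to 8733 and was the longest peak on the scaffold. This stretch held 1 of the 3 highest-scoring scaffold peaks in 14 of 17 lists, against 6 lists for the first stretch and 7 for the last. Choosing stretches that every list calls can favour high scores, and 1 of these lists had only 4 scaffold peaks. The counts are therefore a description.

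At the last stretch, γ-tubulin scored 93 (asynchronous), 130 (3 h), 35 (7 h) and 235 (9 h). The 7 h peak stood at percentile 6 of its list and the 9 h peak at percentile 81.0, so a shared position did not go with a shared rank. The PCNA peak scored 117 (asynchronous), 123 (3 h) and 129 (9 h), and the Mcm5 peak 84, 146 and 146. In the asynchronous U2OS PCNA list the peak at 4889 to 5464 tied at score 154 with that at 6436 to 6979, off the 3 stretches. With this tie included, the highest-scoring scaffold peak lay on one of the 3 stretches in 9 of 17 lists. The choice of the stretches can favour high scores, so this count too is a description.

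Some peak edges were also shared. The windows named here were picked because the most lists shared them, so their counts are a description. No rate was computed for other windows or off the scaffold. Within windows of 10 bp, 7 lists placed a start at 4030 to 4039, 5 lists at 2268 to 2275 and 5 lists at 4995 to 5004. Ends recurred at 11065 to 11068 in 6 lists, at 1271 to 1280 in 5 lists and at 8322 to 8331 in 5 lists.

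To see how far the lists covered the same bases, all 136 pairs of the 17 lists were compared. Of the list that covered fewer bases, 73.9% to 100% also lay in the larger list, with a median of 98.2%, and the share was above 80% in 132 pairs. For γ-tubulin at 7 h and at 9 h, 100% of the bases at 7 h and 39.1% of those at 9 h were shared. γ-tubulin at 7 h and FoxM1 at 7 h shared 94.6% of the former and 65.5% of the latter. The lowest value was for PCNA of shTUBG U2OS in asynchronous cells and at 3 h, which shared 758 bp, 38.7% of the former and 73.9% of the latter. Lists with little cover were thus nested in those with more. A list that covers most of the span contains nearly any other, so these shares move with the cover.

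Scaffold peaks were 200 to 3976 bp wide with a median of 407 bp, and the other peaks 200 to 10323 bp with a median of 345 bp. For γ-tubulin the median scaffold peak was 352 bp in asynchronous cells, 321 bp at 3 h, 341.5 bp at 7 h and 574 bp at 9 h, beside 356, 307, 340 and 351 bp for the other peaks of the same lists. For FoxM1 it was 309, 732, 340 and 1976 bp, beside 328.5, 351, 356 and 346 bp. PCNA in shTUBG U2OS had narrow scaffold peaks in asynchronous cells (260 bp) and at 3 h (253 bp), and 527 bp at 9 h, beside 394, 351 and 349 bp. The log2 ratio of the median scaffold width to that of the other peaks averaged 0.27 with an SD of 0.70 over 17 lists, and scaffold peaks were wider in 11 and narrower in 6. A two-sided sign-flip permutation test with 100000 resamples gave p = 0.108 (adjusted p = 0.108 over 2 comparisons). It treats the lists as independent, which they are not. With the mean width in place of the median the ratio was -0.30.

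Gaps between neighbouring scaffold peaks differed between lists. The median gap was 442 bp for γ-tubulin in asynchronous cells, 352 bp at 3 h, 764 bp at 7 h and 186 bp at 9 h. For FoxM1 at 3 h it was 103.5 bp and at 9 h 126 bp. In PCNA lists of shTUBG U2OS it was 1682 bp in asynchronous cells, 3851 bp at 3 h and 235.5 bp at 9 h. No gap was shorter than 51 bp.

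Each peak carries a whole-number score, and its place within its own list is given here as a percentile from 0 (lowest) to 100 (highest). Scaffold peaks of γ-tubulin had a median percentile of 31.9 (asynchronous), 52.4 (3 h), 17.3 (7 h) and 59.2 (9 h), beside 56.9, 49.6, 58 and 46.9 for the other peaks. PCNA in U2OS had 44.5 (asynchronous), 40.9 (3 h) and 49.2 (9 h), and Mcm5 33.7, 30.7 and 50.9. FoxM1 ranged most, from 16.7 (asynchronous) and 32.5 (7 h) to 73.0 (3 h) and 82.8 (9 h). PCNA in shTUBG U2OS had 17.8 (asynchronous), 19.6 (3 h) and 58.7 (9 h).

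Over the 17 lists, the rank of scaffold peaks minus that of the other peaks averaged -10.5 percentile points, with an SD of 22.7, lower in 11 lists and higher in 6. The two-sided sign-flip permutation test gave p = 0.0771 (adjusted p = 0.108). It treats lists as independent, although those of a time and line share labelled input samples, so p can be too low. The side of the threshold depended on the processing. With the mean percentile in place of the median the difference was -11.7 points (permutation p = 0.0234), without the FoxM1 lists it was -13.7 points (permutation p = 0.0229), and against peaks on other scaffolds alone it was 1.65 points (permutation p = 0.846). In U2OS the rank was highest at 9 h for 4 of 4 antibodies, 60.5 on average against 37.4 for the mean of the other times, a difference of 23.2 points with an SD of 14.8 (exact sign-flip permutation test, p = 0.125, adjusted p = 0.1875). Without the 7 h lists the difference was 20.1 points. The 4 antibodies share labelled input samples, and 9 h was chosen after the values were seen.

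**Figure D4:**
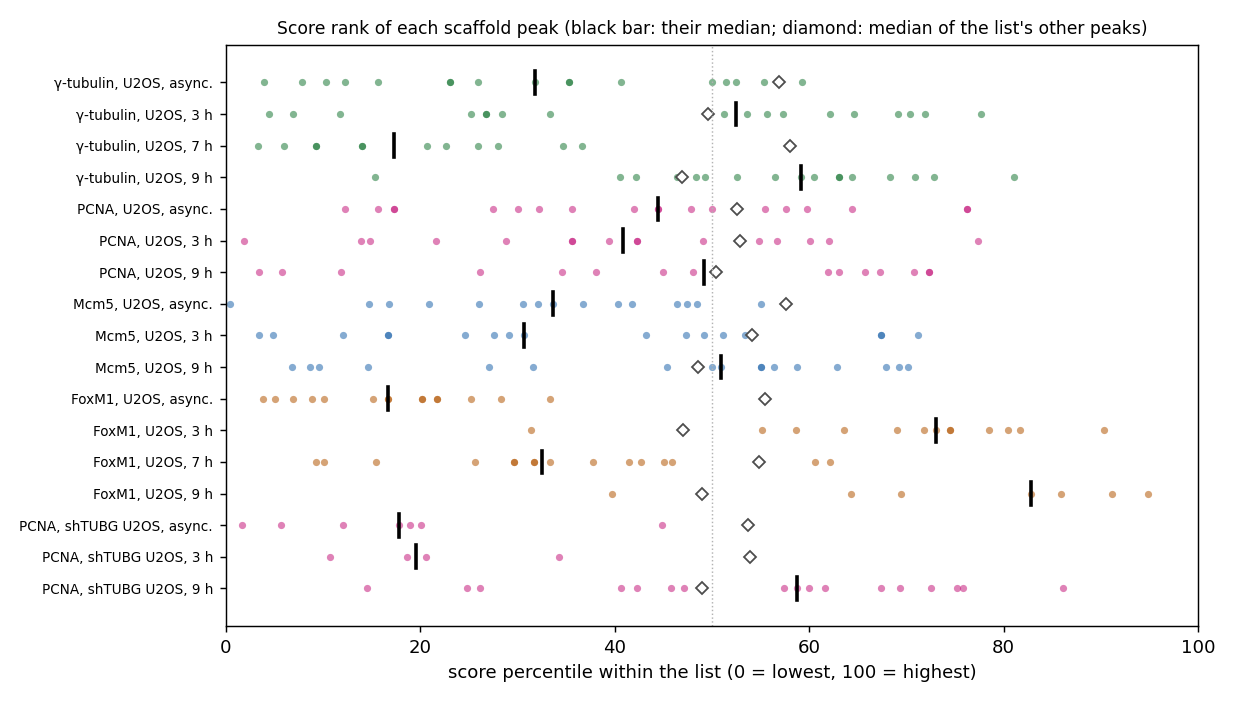
Each dot is a scaffold peak at its score percentile within its own list (0 lowest, 100 highest), with a black bar for the median of the scaffold peaks and a diamond for the median of the other peaks of that list. The black bars of FoxM1 lie at 73.0 and 82.8 at 3 and 9 h, right of the diamonds, and at 16.7 and 32.5 in asynchronous cells and at 7 h, left of them.

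The scaffold did not hold the highest peak of any list, since its best rank ran from 13 in the FoxM1 list at 9 h to 86 in the asynchronous FoxM1 list. The highest γ-tubulin percentile was 81.0, at 14236 to 14938 at 9 h (score 235), and the lowest 3.33, at 11818 to 12020 at 7 h (score 25). For PCNA in U2OS they were 77.4 at 6481 to 7012 (score 179) and 1.92 at 6203 to 6429 (score 28), neighbouring peaks of the same 3 h list. For Mcm5 the highest was 71.2 at 14392 to 14889 at 3 h (score 146) and the lowest 0.510 at 12504 to 12706 in asynchronous cells (score 21). For FoxM1 they were 94.9 at 13001 to 14976 at 9 h (score 377) and 3.88 at 2272 to 2591 in asynchronous cells (score 29). For PCNA in shTUBG U2OS the highest was 86.1 at 7160 to 8486 at 9 h (score 249) and the lowest 1.72 at 13250 to 13509 in asynchronous cells (score 23). The lowest peak was narrower than the highest for each antibody.

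Peaks of γ-tubulin and PCNA on the scaffold were then compared by position, with an overlap defined as at least 25% of both peaks. In U2OS, 48 of 64 scaffold γ-tubulin peaks met a PCNA peak of the matching time (75%, interval 62.6% to 85.0%), beside 52.3% of all γ-tubulin peaks and 48.6% of those elsewhere. By time they were 17 of 17 (asynchronous), 14 of 18 (3 h), 0 of 12 (7 h) and 17 of 17 (9 h). The interval treats peaks as independent, which neighbouring peaks and peaks recurring over times are not. It does not describe this spread between times. Of the 51 PCNA peaks, 48 overlapped a γ-tubulin peak (94.1%), beside 58.5% of PCNA peaks elsewhere. The 16 γ-tubulin peaks without PCNA were thus 12 from 7 h, where the PCNA list had no scaffold peak, and 4 from 3 h.

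Positions recurred across times as well. All 12 γ-tubulin peaks of 7 h met a PCNA peak of the asynchronous list, 12 met one of 3 h and 10 one of 9 h. These PCNA lists covered 52.7%, 45.6% and 66.4% of the span. Overlaps across times were not computed for peaks elsewhere, so these counts are a description without a background. The 17 asynchronous γ-tubulin peaks met PCNA peaks of 3 h in 14 cases and of 9 h in 14, and the 18 of 3 h met asynchronous PCNA peaks in 18 cases and those of 9 h in 17. Lists of different times do not share labelled input samples, but these lists share the line and the peak caller. Why positions recurred was not tested.

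Mcm5 peaks that overlap a PCNA peak of the same time are counted as active origins in the study, and the others as dormant origins. On the scaffold 46 of 49 Mcm5 peaks were active by this definition (93.9%, interval 83.1% to 98.7%), beside 59% of all Mcm5 peaks and 53.6% of those elsewhere. They were 15 of 15 in asynchronous cells, 15 of 17 at 3 h and 16 of 17 at 9 h. The 3 dormant ones were 2 at 3 h and 1 at 9 h. γ-tubulin overlapped 48 of 49 (98.0%), beside 78% of all Mcm5 peaks. These shares describe positions on a scaffold where most bases were called, and no test was made on them. The interval again treats peaks as independent, which they are not.

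FoxM1 overlapped 25 of the 49 Mcm5 peaks, beside 56.8% of all Mcm5 peaks, with 13 of 15 in asynchronous cells, 9 of 17 at 3 h and 3 of 17 at 9 h. FoxM1 overlapped 48 of 64 γ-tubulin peaks (75%), beside 71.3% of all γ-tubulin peaks, namely 13 of 17 (asynchronous), 12 of 18 (3 h), 12 of 12 (7 h) and 11 of 17 (9 h). When 1 shared bp was enough, FoxM1 met 47 of the 49 Mcm5 peaks, beside 67.7% of Mcm5 peaks elsewhere. By the same rule it met 60 of the 64 γ-tubulin peaks, beside 79.2% of those elsewhere. A narrow peak inside a broad FoxM1 peak of 3 or 9 h can make up less than 25% of it.

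To compare the lines, scaffold peaks were counted at matched times. For γ-tubulin, U2OS had 17 (asynchronous), 18 (3 h), 12 (7 h) and 17 (9 h), and shTUBG U2OS had 0 each time. The groups did not overlap. The shTUBG U2OS lists held 94, 33, 42 and 67 peaks, so a count of 0 allows a share of up to 3.19%, 9.09%, 7.14% and 4.48%. In U2OS the share was above this limit at each time, but at 3 h the limit lay inside the U2OS interval (8.91% to 22.1%). The limit treats peaks as independent, which neighbouring scaffold peaks are not. The mean number was 16 ± 2.71 in U2OS against 0 (SD, n = 4 times), with a difference of -16 in the direction shTUBG U2OS minus U2OS, with p = 0.125 in the exact sign-flip permutation test, the smallest 4 pairs allow (adjusted p = 0.25 over 6 comparisons). The share of the list was 14.6% ± 2.48 against 0, and the covered length 7272 ± 2853 bp against 0, each with the same p and adjusted p in the exact test.

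γ-tubulin peaks off the scaffold changed less in number. They were 85 in U2OS and 94 in the other line (asynchronous), 105 and 33 (3 h), 63 and 42 (7 h) and 136 and 67 (9 h), and the sum changed by -39.3%. Of all 453 γ-tubulin peaks in U2OS, 89.4% had no matching γ-tubulin peak in shTUBG U2OS, against 64 of 64 on the scaffold. The absence of scaffold peaks therefore stood beside a general turnover of γ-tubulin peaks between the lines. The antibody detects the protein that the shRNA is directed against, and the lists give no level of it.

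For PCNA, U2OS had 19 (asynchronous), 16 (3 h), 0 (7 h) and 16 (9 h) scaffold peaks, and shTUBG U2OS had 7, 4, 0 and 17. PCNA was thus lower in shTUBG U2OS at 2 times, level at 1 and higher at 1. Its mean was 12.8 ± 8.62 against 7 ± 7.26 (SD, n = 4 times), a difference of -5.75 (exact sign-flip permutation test, p = 0.5, adjusted p = 0.5). When peaks within 1000 bp were merged the direction reversed, to a difference of 1.5 in number and of 4.55 percentage points in share. The share of the list averaged 10.9% in U2OS and 6.71% in shTUBG U2OS, lower at 3 of 4 times and equal at 1 (exact test, p = 0.25, adjusted p = 0.375). The covered length was 7878 and 1959 bp in asynchronous cells, 6812 and 1026 bp at 3 h and 9914 and 10556 bp at 9 h (exact test, p = 0.5, adjusted p = 0.5). PCNA peaks off the scaffold went from 99 to 80, from 88 to 47, from 17 to 25 and from 114 to 138 at the 4 times, so their direction was that of the scaffold peaks at the 3 times with scaffold peaks.

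The PCNA peaks left in shTUBG U2OS stood where U2OS had PCNA. All 28 overlapped a U2OS PCNA peak of the same time, beside 65.7% of all 318 PCNA peaks of shTUBG U2OS. In the other direction 27 of 51 were found, 7 of 19 in asynchronous cells, 4 of 16 at 3 h and 16 of 16 at 9 h, beside 55.8% of all 369 U2OS PCNA peaks. None of the 28 overlapped a γ-tubulin peak of shTUBG U2OS, where 33 of the 290 PCNA peaks elsewhere did (11.4%), as that antibody had no peak on the scaffold in this line. At 9 h in shTUBG U2OS, 17 PCNA peaks thus covered 70.7% of the span with no γ-tubulin peak beside them.

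The difference between lines was larger for γ-tubulin than for PCNA at 4 of 4 times, with a mean γ-tubulin minus PCNA of -10.25 peaks (SD 6.02) and of -4506 bp in covered length (SD 5107). At 7 h PCNA had no scaffold peak in either line, so its difference there was fixed at 0. Of the 4 times, 3 could thus show a PCNA difference, and 3 pairs alone cannot give a p under 0.25. Over all 4 pairs the exact sign-flip permutation test of this difference gave p = 0.125 for each, and 0.125 after adjustment over 2 comparisons.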

How the data were processed

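The deposited files are 24 peak lists, each with sequence name, start, end, name and a whole-number score per peak, which the authors made with MACS2. Starts are counted from 0 in the files and from 1 here. The submitters' processing notes name Bowtie2 2.1.0, SAMtools 1.7-13, MACS2 and hg19. What the score measures, how both samples and the input were combined, and how duplicate, multiply mapped and blacklisted reads were treated are not given in the sources used here. The score deposited by the authors was used only as a rank within a list. Input samples and reads were not used here, and the lists hold no read numbers, so depth is unknown.

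Peaks were compared with Python 3.11.15, numpy 2.4.6, scipy 1.17.1 and pandas 2.3.3, and figures were drawn with matplotlib 3.10.9. The list was the unit and the time the pair in two-sided sign-flip permutation tests, exact for fewer than 10 lists and with 100000 resamples otherwise, with Benjamini-Hochberg adjustment within each family and a threshold of 0.05. With 4 pairs the test cannot give a p under 0.125. Overlaps needed 25% of both peaks, the study's definition, and shares carry 95% Clopper-Pearson intervals. A count of 0 was given the limit of 3 counts. The functions were tested on simulated data. Named are the 6 merged regions, and the scaffold peaks of highest and lowest score percentile per antibody and line. The members and lists were chosen with earlier results of these data known.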

Additional observations from a re-analysis of the deposited data

Results flagged for a closer look

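The PCNA difference between lines changed direction over time. The number of scaffold peaks in shTUBG U2OS minus U2OS was -12 (asynchronous), -12 (3 h) and 1 (9 h), with 0 in both lines at 7 h. The covered length changed by -5919 bp, -5786 bp and 642 bp at the same times. There was 1 list per line and time, so no test of the difference between times was made. The lists held 118 and 87 PCNA peaks in U2OS and shTUBG U2OS in asynchronous cells, 104 and 51 at 3 h and 130 and 155 at 9 h, so the length of the whole list moved the same way.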

How the results depend on the processing

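No paired analysis was possible because, for replicates, a list pools the 2 labelled samples it stands for, without replicate numbers. Lists were paired by time alone, and no replicate could be omitted. Of 91 alternatives for 16 results, 79 were labelled the same as the main result, and 10 of the 91 were chosen after seeing the data. For tested results the label means that the direction and the side of the threshold were kept. For the 2 overlap shares it means a value inside the interval of the main result. Exact tests of 4 or 3 pairs cannot give a p under 0.125 or 0.25, so their side of the threshold was fixed in advance. With peaks within 1000 bp merged, the PCNA number in shTUBG U2OS minus U2OS became 1.5. Its share, with all peaks of the list merged as well, became 4.55 percentage points. Median gaps between scaffold PCNA peaks in U2OS and shTUBG U2OS were 346 and 1682 bp in asynchronous cells. They were 374 and 3851 bp at 3 h and 235 and 235.5 bp at 9 h, and the cause of the reversal was not tested. In covered bases in place of number, γ-tubulin minus FoxM1 was -2204 bp, and the cause was not tested. The score rank of scaffold peaks against peaks on other scaffolds alone was 1.65 points (p = 0.846, permutation over 14 lists). It passed the threshold with the mean percentile (-11.7, permutation p = 0.0234) and without the FoxM1 lists (-13.7, permutation p = 0.0229), and the cause was not tested. The log2 width ratio became -0.30 with mean widths (permutation p = 0.0956). It passed the threshold in U2OS lists alone (0.37, permutation p = 0.0148) and for peaks not below their list's median score (0.36, permutation p = 0.0152), and the cause was not tested. The rank and width tests treat lists as independent. Lists of a time and line share labelled input samples, so these p-values can be too low. The 9 h difference in peak number became -2 without the 7 h lists, 2 of which had no scaffold peak. The share of γ-tubulin peaks with PCNA was 92.3% without 7 h and 61.5% for peaks not below their list's median score. The γ-tubulin difference between lines ranged from -17.3 to -2.25 peaks, from -15.8 to -4.95 percentage points and from -8250 to -3909 bp, and p from 0.125 to 0.25 in the exact permutation test. With 1 pooled list per group and unknown depth, neither biological nor technical spread within a group can be given.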
